A study of Mus musculus with 10 samples.

Results

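Tbx3 is a gene of the T-box family, transcription factors that bind DNA through a shared T-box domain, and it was followed as 1 row of the 32361 in the deposited table, found by its symbol. RNA came from E14Tg2a.4 mouse embryonic stem (ES) cells after fluorescence sorting. A double knock-in line, with a fluorescent reporter at Esrrb and another at Tbx3, gave 3 fractions: double-positive (Esrrb-positive and Tbx3-positive), single-positive (Esrrb-positive but Tbx3-negative) and double-negative (Esrrb-negative and Tbx3-negative). Every fraction of that line carries both knock-ins. A second line, with a PiggyBac reporter that a Zscan4c promoter fragment drives, gave the Zscan4-positive and Zscan4-negative fractions (Zscan4c-Positive and Zscan4c-Negative in the labels), which had no gate on Tbx3. Each fraction has 2 libraries, from cells taken on separate days, which makes 10. The sources used here do not give the number of clones, the culture medium or where in Tbx3 the reporter sits.

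The authors' table holds 1 FPKM value (fragments per kilobase of transcript, relative to the mapped total) per row and fraction, with both libraries merged. No value below therefore has an SD, a replicate check or a p-value, depth is unknown, and every comparison is a description of these 5 columns. Differences are given on the log2(FPKM + 1) scale, which understates the differences of low genes, and higher or lower, said of a call, means that this difference reached 1, that is 2-fold. The 13595 rows that reached 1 FPKM in any fraction were compared.

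In mouse ES cells Tbx3 belongs to the naive pluripotency network, and it is known as a gene that LIF signalling sustains, chiefly through the PI3K arm, upstream of Nanog. It acts mainly as a repressor. Its transcript is spliced in alternative forms that differ by a short exon inside the T-box, and it has also been tied to extraembryonic endoderm, to Dnmt3b and to the Zscan4-expressing state, which resembles the 2-cell embryo.

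The deposited row covers chr5:119670862-119684724 (mm10) on the plus strand and combines 2 transcript identifiers, so splice forms cannot be told apart in its FPKM. GENCODE M21, on the same assembly (GRCm38), has 3 coding transcripts of the gene. Tbx3-201 has 741 codons, and each of the others has 721. The difference is a coding exon of 60 bases, exon 3 of the 8 in Tbx3-201, at chr5:119675243-119675302. It is shown because it separates the forms that the deposited value merges. In the sequence from GENCODE M21, which reads 5′ to 3′ on the plus strand, capitals mark the alternative exon and lower case marks 30 bases of each coding exon beside it.
Tbx3 alternative exon: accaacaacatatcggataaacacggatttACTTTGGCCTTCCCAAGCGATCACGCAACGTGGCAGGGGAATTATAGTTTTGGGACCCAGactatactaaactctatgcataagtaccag

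Markers of other cell types were high in both Tbx3-negative fractions. The 13 fibroblast markers summed to 138 FPKM in double-positive, 1558 FPKM in single-positive and 2150 FPKM in double-negative cells. Their sum in the Zscan4 line was 159 and 131 FPKM in Zscan4-positive and Zscan4-negative cells. The 13 T-lineage markers summed to 38.5, 417 and 575 FPKM in double-positive, single-positive and double-negative cells, and to 24.8 and 28.7 FPKM in Zscan4-positive and Zscan4-negative cells. Of these markers, Lck alone was at 20.9 FPKM in double-positive cells, and at 9.93 and 14.5 FPKM in Zscan4-positive and Zscan4-negative cells. In double-negative cells 11 of the fibroblast and 12 of the T-lineage markers reached 1 FPKM. Dcn and Lum, matrix proteoglycan genes that mark fibroblasts, stayed under 0.22 FPKM everywhere, and Lum was listed at 0 in both Zscan4 fractions. The ES cell markers were high throughout, with a sum of 3684 to 6086 FPKM over 5 genes. The part of these transcripts in results that use a Tbx3-negative fraction was not tested, and the Zscan4 sort uses neither of them.

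Tbx3 was at 12.6 FPKM in double-positive, 1.75 FPKM in single-positive and 0.638 FPKM in double-negative cells. In the Zscan4 line it was at 35.3 FPKM in the Zscan4-positive and 11.4 FPKM in the Zscan4-negative fraction. The highest level thus lay in the fraction sorted on Zscan4 and not in the one sorted on Tbx3 itself, and the lowest in cells negative for both knock-in reporters. The double-positive and Zscan4-negative levels stood next to each other in the order, with a ratio of 0.906 for Zscan4-negative over double-positive and a log2 difference of -0.13. With 1 value each, whether neighbours in this order differ cannot be decided. Among the rows compared, 45.3% lay above Tbx3 in double-positive, 84.5% in single-positive and 96.4% in double-negative cells, against 21.6% in Zscan4-positive and 47.0% in Zscan4-negative cells. In sorted bulk RNA, fewer cells with Tbx3 and less Tbx3 RNA per cell cannot be told apart. For comparisons between the lines, the knock-in allele and the line cannot be told apart either.

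**Figure D1:**
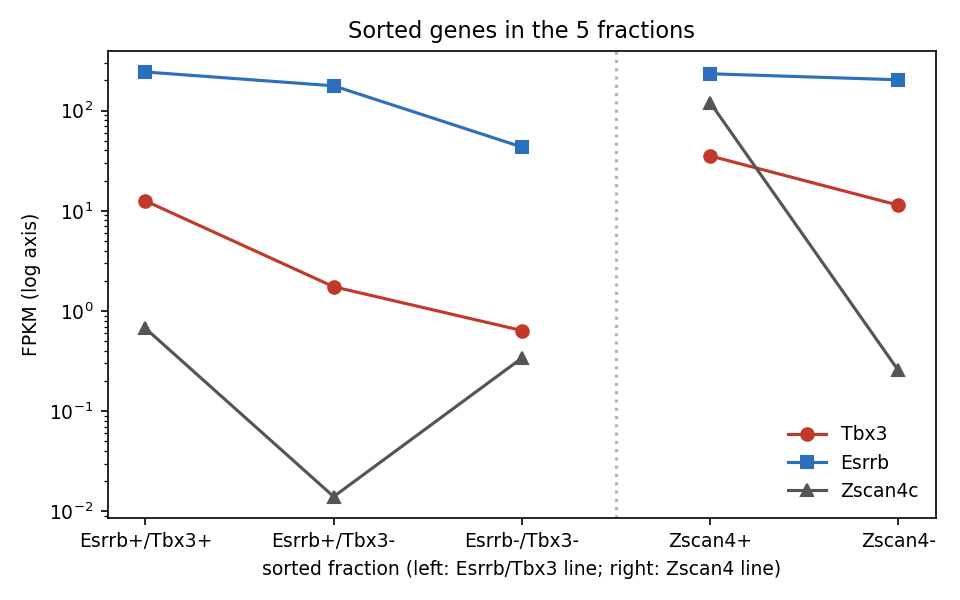
FPKM (log axis) of Tbx3, Esrrb and Zscan4c in the 5 fractions, with the Esrrb/Tbx3 line left of the dotted line and the Zscan4 line right of it. Each point is 1 deposited value for 2 merged libraries. Tbx3 spans 0.638 to 35.3 FPKM, while Esrrb is above 40 FPKM in every fraction.

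Esrrb, an orphan nuclear receptor gene of the same network, set the other axis of the sort. It was at 243 FPKM in double-positive, 177 FPKM in single-positive and 43.3 FPKM in double-negative cells. Its level was 233 FPKM in the Zscan4-positive and 203 FPKM in the Zscan4-negative fraction. Tbx3 FPKM amounted to 5.17% of Esrrb FPKM in double-positive, 0.988% in single-positive and 1.47% in double-negative cells, and to 15.1% in Zscan4-positive and 5.61% in Zscan4-negative cells. Relative to Esrrb, Tbx3 was lowest in single-positive cells, whereas by its own level it was lowest in double-negative cells. Single-positive cells were gated as Esrrb-positive and Tbx3-negative, which favours a low ratio there, so these percentages are a description.

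The Esrrb step compares single-positive with double-negative cells, both of which were gated as negative for the Tbx3 reporter, and so asks whether Tbx3 RNA followed Esrrb where the reporter was off. Tbx3 was at 1.75 FPKM in single-positive against 0.638 FPKM in double-negative cells, a ratio of 2.74, while the ratio for Esrrb was 4.08. The log2 difference of Tbx3 was 0.75, short of 2-fold. It reached 1.32 with a pseudocount of 0.1 FPKM in place of 1, which is past 2-fold, and the pseudocount of 1 is larger than the double-negative level itself. In this step 1.82% of all rows compared were called higher, and Tbx3 was number 461 from the top.

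The Tbx3 step, double-positive over single-positive, and double-positive over double-negative are contrasts in which the sort itself used Tbx3, so the Tbx3 values are a check of the labels and are given as a description. Tbx3 was at 12.6 FPKM in double-positive against 1.75 FPKM in single-positive cells, a ratio of 7.19, with a log2 difference of 2.30. Over the same step the ratio for Esrrb was 1.37. Of all rows, 0.346% were at least 2-fold higher in this step, which is 47 rows. Tbx3 was number 5 among the 12883 protein-coding and long noncoding rows, below Fgfr4 (3.56), Dancr (3.41), 2210011C24Rik (3.23) and P2rx7 (2.51), which are named for their rank alone. Against double-negative cells the Tbx3 ratio was 19.7 and the log2 difference 3.05, in a comparison where 3.81% of rows were called higher.

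The Zscan4 sort is the comparison in which Tbx3 took no part in the gating. Tbx3 was at 35.3 FPKM in Zscan4-positive against 11.4 FPKM in Zscan4-negative cells, a ratio of 3.10 and a log2 difference of 1.55. It was called higher, as were 3.46% of all rows, and it was number 189 of 12883 coding and long noncoding rows. Under the alternatives of pseudocount and scaling the difference ran from 1.50 to 1.63. The alternatives of filter and summed rows cannot change it, as Tbx3 is a single row. Esrrb had a ratio of 1.15 in the same sort, and Zscan4c, the gene behind the reporter and 1 of several near-identical copies among which reads may be split, was at 120 FPKM in Zscan4-positive against 0.255 FPKM in Zscan4-negative cells. In the double-positive fraction, where Tbx3 was at 12.6 FPKM, Zscan4c was at 0.671 FPKM, against 0.0140 FPKM in single-positive and 0.339 FPKM in double-negative cells. A high Tbx3 level was thus found in both the presence and the near absence of Zscan4c RNA.

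**Figure D2:**
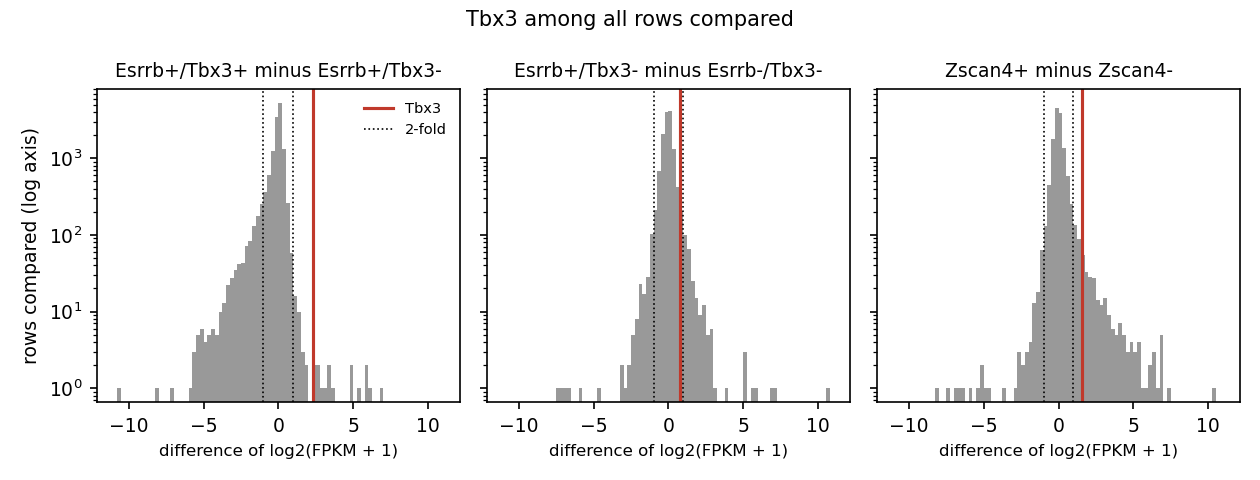
Number of rows compared (log axis) by their difference of log2(FPKM + 1) in the Tbx3 step, the Esrrb step and the Zscan4 sort, with Tbx3 as the red line and dotted lines at 2-fold. Tbx3 lies at 2.30, 0.75 and 1.55, and the left panel shows the long lower tail of the Tbx3 step.

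Within the naive network, a list of 14 genes with Tbx3, the profile of Tbx3 differed from those of the other 13. In the Esrrb step 10 of the 14 were at least 2-fold higher and none lower, where 1.82% of all rows were higher and 1.43% lower, and the list median was 1.79 against -0.02 over all rows. With a pseudocount of 1 FPKM Tbx3 was number 14 of the 14 by log2 difference in that step. That place turned with the pseudocount: at 0.5 and at 0.1 FPKM Tbx3 was number 11, above Klf5, Fgf4 and Klf2, whose FPKM ratios were 1.70, 1.87 and 1.90, against 2.74 for Tbx3. With a pseudocount of 1 FPKM the other 13 ran from 0.76 for Klf5, a Kruppel-like factor gene, to 2.49 for Tcl1, an AKT coactivator gene. In the Tbx3 step the other 13 lay between 0.24 and 0.79, none past 2-fold, so that each of them differed more over the Esrrb step than over the Tbx3 step. Tbx3 alone had the reverse, by 1.56 on the log2 scale, as the gating on its reporter arranges. Esrrb is among the other 13 and among the 10 higher in the Esrrb step. The gate on its own reporter likewise arranges its differences, 2.01 in the Esrrb step and 0.46 in the Tbx3 step. The list median in the Tbx3 step was 0.48 against 0.01 over all rows. Double-positive over double-negative, all 14 were at least 2-fold higher, as were 3.81% of all rows, with a list median of 2.41 against -0.02 over all rows. Both gated genes, Esrrb and Tbx3, are counted in the 14 and in that median.

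In the Zscan4 sort, where no gate touched these genes, the 14 naive genes held 2 at least 2-fold higher, Tbx3 and Nanog, where 3.46% of all rows were higher, with a list median of 0.35 against -0.01 over all rows. Nanog, the homeobox factor gene placed downstream of Tbx3, was at 522 FPKM in Zscan4-positive against 257 FPKM in Zscan4-negative cells, a log2 difference of 1.02. All of the other 13 were above their Zscan4-negative level, but the remaining 12 by 0.03 to 0.63 on the log2 scale. Tbx3 had the largest of the 14 differences.

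The lines also differed in how Tbx3 stood beside the network. Zscan4-negative over single-positive, the ratio of FPKM was 6.52 for Tbx3, and for the other 13 naive genes it ran from 0.821 for Prdm14 to 1.15 for Esrrb, with a median of 0.963. Zscan4-negative cells thus had naive gene levels close to those of single-positive cells, and a Tbx3 level close to that of double-positive cells. In Zscan4-negative over double-positive the other 13 had log2 differences of -0.90 to -0.26, and Tbx3 at -0.13 was the nearest to 0. None of the 14 was called there, where 0.743% of all rows were lower and 0.816% higher. Single-positive cells had been chosen for a dim Tbx3 reporter, whereas no Tbx3 gate was applied in the Zscan4 line. The gate, the knock-in alleles and the line cannot be told apart in these ratios.

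The T-box family has 17 members on the list and all were found, but 11 of them stayed under 1 FPKM in every fraction, and 6 were compared. Mga, which encodes a large protein with a T-box and a MAX-binding domain, was at 39.0 FPKM in double-positive, 35.8 FPKM in single-positive and 27.3 FPKM in double-negative cells, and at 26.8 and 26.6 FPKM in Zscan4-positive and Zscan4-negative cells. Tbx3 was number 2 after Mga in 3 fractions, number 1 in Zscan4-positive cells and number 8 in double-negative cells. Apart from these, the highest member was Eomes, a gene of primitive streak and trophoblast, in double-positive (1.04 FPKM), Zscan4-positive (1.23 FPKM) and Zscan4-negative cells (1.37 FPKM). Tbx3 FPKM was 12.1, 28.7 and 8.28 times that level in these fractions.

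In single-positive cells Mga alone exceeded Tbx3, whereas in double-negative cells 7 members did. The highest of these after Mga was Tbx15, a gene of limb and skin mesenchyme, at 0.0997 FPKM in double-positive, 1.19 FPKM in single-positive and 2.03 FPKM in double-negative cells. Tbx18, a gene of epicardial and urogenital mesenchyme, was at 0.0578, 1.02 and 1.70 FPKM in the same fractions. Both Tbx15 and Tbx18 were near 0 in the Zscan4 line, at 0.163 FPKM or less. Tbx15 and Tbx18 are also among 484 of the 13595 rows compared that have a profile shared by the double-negative and single-positive columns. This profile was defined with the values in view, so membership in it is a description. Relative to double-negative cells, each row has a level of 0.1 or less in the Zscan4 line and in double-positive cells. In single-positive cells it has 0.5 to 1. The profile holds 9 of the 13 fibroblast markers. The profile also holds 7 of the 13 T-lineage markers. The single-positive over double-negative ratio, which the profile itself limits to 0.5 to 1, was 0.583 for Tbx15 and 0.602 for Tbx18. Its median was 0.710 over the fibroblast and 0.738 over the T-lineage markers, and it was 2.74 for Tbx3. The source of the Tbx15 and Tbx18 RNA was not tested. Tbx2, the closest paralog of Tbx3 and also a repressor, stayed under 1 FPKM, at 0.312, 0.794 and 0.845 FPKM in double-positive, single-positive and double-negative cells and at 0.569 and 0.201 FPKM in Zscan4-positive and Zscan4-negative cells. Tbx21, the T-cell factor gene, was at 0.162, 0.169 and 0.0992 FPKM in double-positive, single-positive and double-negative cells. It was at 0.661 and 0.128 FPKM in Zscan4-positive and Zscan4-negative cells. These levels are all under 1 FPKM, and the source of the Tbx21 RNA was not tested. Of the 6 members compared, Tbx3 was the 1 called higher in the Zscan4 sort and in the Tbx3 step. The shares of all rows higher there were 3.46% and 0.346%. None of the 6 was called lower in either comparison. In the Zscan4 sort 9 of the 16 other T-box rows were above their Zscan4-negative level. Tbx1, Tbx21 and Tbx2, left out for low values, had FPKM ratios of 7.49, 5.17 and 2.82 in that sort, at levels under 1 FPKM. Double-positive over double-negative, Tbx15 and Tbx18 were lower (12.2% of all rows were), and the median of the 6 was -0.48 against -0.02 over all rows.

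**Figure D3:**
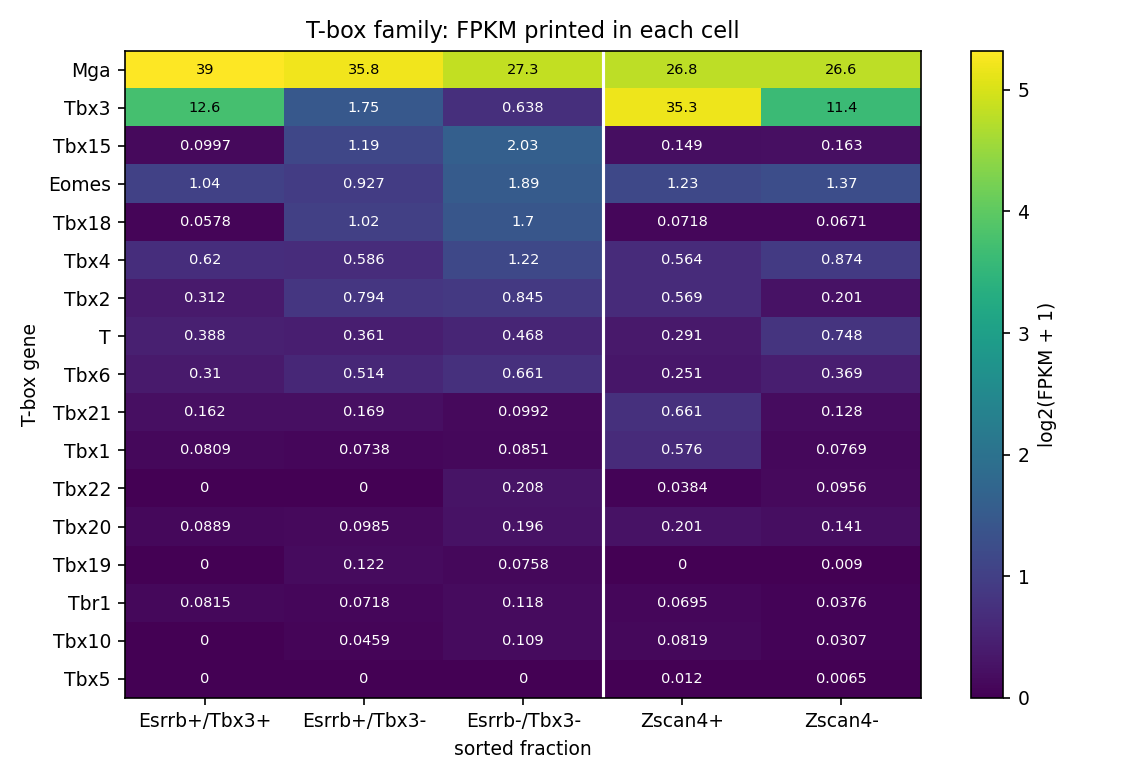
Levels of the 17 T-box genes, coloured by log2(FPKM + 1) and with the FPKM printed in each cell, in the Esrrb/Tbx3 line (left of the white line) and the Zscan4 line. Mga is high in all 5 fractions, Tbx3 varies from 0.638 to 35.3 FPKM, and Tbx15 and Tbx18 are highest in double-negative cells.

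Of 26 other rows within 1 Mb of Tbx3, 8 were at 0 in every fraction and 10 were compared, of which none was past 2-fold in any of the comparisons. The rows left out for low values include the adjacent noncoding gene Tbx3os2, whose FPKM was 13.7 times as high in double-positive as in single-positive cells and 2.84 times as high in Zscan4-positive as in Zscan4-negative cells, at levels under 0.3 FPKM. Of all rows, 3.25% were past 2-fold in either direction in the Esrrb step, 7.28% in the Tbx3 step, 16% in double-positive over double-negative, 4.33% in the Zscan4 sort and 1.56% in Zscan4-negative over double-positive. In the Tbx3 step the 10 neighbours ran from -0.28 to 0.32, and in the Zscan4 sort from -0.33 to 0.44. Med13l, a Mediator kinase module gene, was at 24.6 FPKM in double-positive against 23.2 FPKM in single-positive cells. Rbm19, a ribosome biogenesis gene, was at 24.3 against 19.3 FPKM in the same fractions. The closest paralogous neighbour, the heart and forelimb gene Tbx5, was listed at 0 in all fractions of the Esrrb/Tbx3 line and at no more than 0.0120 FPKM in the Zscan4 line.

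**Figure D4:**
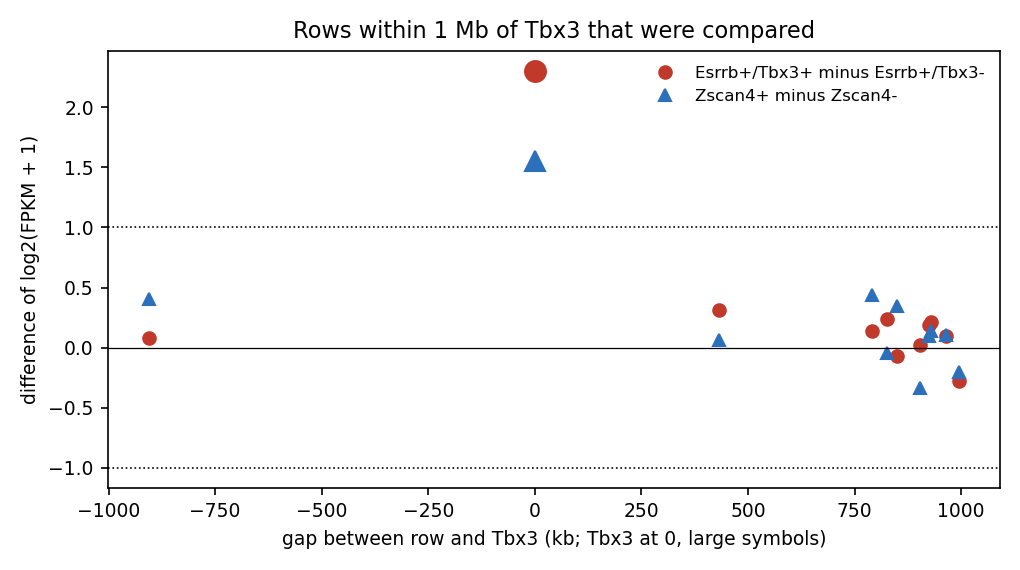
Difference of log2(FPKM + 1) for Tbx3 (large symbols) and for the 10 compared rows within 1 Mb, by their gap from Tbx3 in kb, in the Tbx3 step (circles) and the Zscan4 sort (triangles). The neighbours lie between -0.33 and 0.44, under the dotted 2-fold line, and Tbx3 lies at 2.30 and 1.55.

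A pair of noncoding genes borders Tbx3. Tbx3os1 lies on the minus strand and its GENCODE M21 exons share 115 of the 5205 exonic bases of the coding Tbx3 transcripts, or 2.21%. The NEBNext Ultra RNA kit does not mark strand, so reads there cannot be assigned between the genes. Tbx3os2, also on the minus strand, lies beyond the 3′ end of Tbx3 and does not overlap its span. Tbx3os2 was at 0.218 FPKM in double-positive, 0.0159 FPKM in single-positive and 0.0133 FPKM in double-negative cells. Its level was 0.273 FPKM in the Zscan4-positive and 0.0958 FPKM in the Zscan4-negative fraction. That is the same order of the 5 fractions as for Tbx3, held by 4.46% of all rows compared, but at levels under 1 FPKM throughout, so it was not among the rows compared. Rbm19 had this order too, with levels of 16.3 to 25.4 FPKM and no difference past 2-fold. None of the 16 other T-box rows and none of the other 13 naive genes had it.

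The promoter window of Tbx3os2 is shown because this transcript, the row next to Tbx3, had the same order of fractions. It comes from RefSeq (GRCm38.p6), chr5:119691169-119691468 on the minus strand, reads 5′ to 3′ and spans 250 bases before and 50 after the annotated start.
Tbx3os2 promoter: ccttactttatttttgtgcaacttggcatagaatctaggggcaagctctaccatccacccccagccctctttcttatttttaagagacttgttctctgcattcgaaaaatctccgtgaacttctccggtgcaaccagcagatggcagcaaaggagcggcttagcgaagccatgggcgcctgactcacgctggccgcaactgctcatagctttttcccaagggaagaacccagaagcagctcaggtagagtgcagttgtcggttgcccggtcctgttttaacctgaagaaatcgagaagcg
The window has 50.7% G and C. It was searched on both strands for the T-box motif core GGTGTGA, which 3.98% of 32851 RefSeq promoter windows hold, and for the Esrrb motif core AAGGTCA, which 4.72% hold. Neither set of letters is present in it, so it carries no capitals, and the same was true of the windows of Mreg, Aqp3, Fgfr4, Esrrb and Nanog. This says nothing of binding by either factor elsewhere.

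Rows whose profile was most like that of Tbx3 were found by the root mean square distance between log2(FPKM + 1) profiles, each centred on its mean over the 5 fractions, among 9738 other coding and long noncoding rows with at least 5 FPKM in their highest fraction. The 8 nearest were Calcoco2 (distance 0.50), Aard (0.69), Mreg (0.71), Aqp3 (0.73), AU015836 (0.79), Fgfr4 (0.81), Fbxo15 (0.81) and Jam2 (0.81), and the next row was at 0.82. The median distance was 1.63. Nanog was number 20 and Esrrb number 49. The gating on Tbx3 enters 3 of the 5 fractions, so these distances are descriptions.

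Calcoco2, a selective autophagy receptor gene, came closest. It was at 14.4 FPKM in double-positive, 4.10 FPKM in single-positive and 0.587 FPKM in double-negative cells, and at 27.3 and 7.45 FPKM in Zscan4-positive and Zscan4-negative cells. Calcoco2 thus kept the order of Tbx3 with a larger share of its range in the Esrrb step, where its log2 difference was 1.68. Aqp3, a water and glycerol channel gene, was at 85.1, 33.8 and 13.7 FPKM in double-positive, single-positive and double-negative cells, and at 125 and 43.6 FPKM in Zscan4-positive and Zscan4-negative cells. Fgfr4, an FGF receptor gene, was the exception: it was at 20.6 FPKM in double-positive, 0.837 FPKM in single-positive and 0.891 FPKM in double-negative cells, but at 12.1 FPKM in Zscan4-positive against 17.5 FPKM in Zscan4-negative cells. The other 7 all had the fraction order of Tbx3. Mreg and Fbxo15 had larger differences than Tbx3 in the Zscan4 sort, 2.47 and 2.50, and small ones in the Tbx3 step, 0.44 and 0.39. The list rests on the size of the differences: with each profile divided by its own SD, so that only shape counted, 0 of the 8 stayed among the nearest 8. Without both Tbx3-negative fractions, a setting added with the values in view, 0 of the 8 stayed either.

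**Figure D5:**
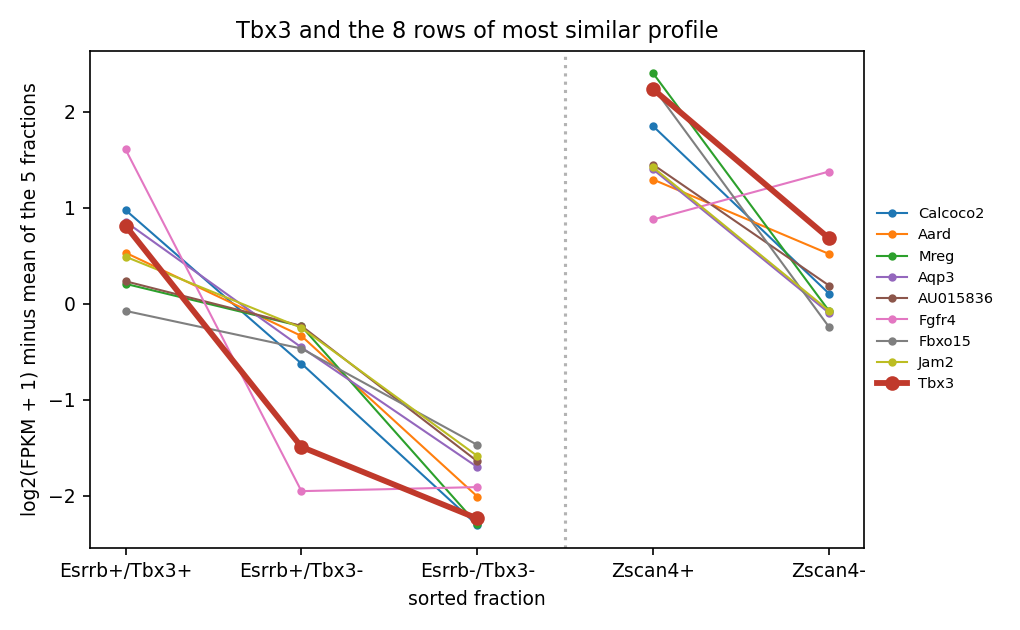
Profiles of Tbx3 (thick red) and the 8 nearest rows, as log2(FPKM + 1) minus the mean of the 5 fractions, in the Esrrb/Tbx3 line (left of the dotted line) and the Zscan4 line. Tbx3 drops more than 7 of the 8 between double-positive and single-positive cells, and Fgfr4 is the 1 row that is lower in Zscan4-positive cells.

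The Tbx3 step and the Zscan4 sort have no fraction in common. Of the 24 coding and long noncoding rows at least 2-fold higher in the Tbx3 step, 11 (45.8%) were also at least 2-fold higher in the Zscan4 sort, which is 2.77% of the 397 rows called there. Those 397 rows are 3.08% of the 12883 coding and long noncoding rows compared. Over all rows, 18 of the 47 higher in the Tbx3 step (38.3%) were also higher in the Zscan4 sort, where 3.46% of all rows were. Among the 11 were Tbx3, which its own gate placed in the Tbx3 step list, Calcoco2 and Aqp3. With them were Dancr, a noncoding RNA gene, 2210011C24Rik, Arl14epl, Trpm1, Fbp2 and the predicted genes Gm5662, Gm20767 and Gm8300. The predicted genes were under 2.1 FPKM in double-positive cells and above 120 FPKM in Zscan4-positive cells. P2rx7, an ATP-gated channel gene, and Hdac11, a deacetylase gene, were lower in the Zscan4 sort, by log2 differences of -1.05 and -1.07, in a comparison where 0.875% of rows were lower. The genes of this paragraph were picked with their values in view.

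LIF, PI3K and MAPK signalling is known to feed into Tbx3. Of its 19 listed genes none was past 2-fold in the Esrrb step, where 3.25% of all rows were, or in the Zscan4 sort, where 4.33% were, with medians of 0.03 and 0.06. Counts of 0 in a list this short are near those shares. In the Tbx3 step, where 6.94% of all rows were lower, Pik3r1, a PI3K regulatory subunit gene, and the kinase gene Jak2 were lower, and the list median was -0.12. Pik3r1 was at 3.68 FPKM in double-positive, 8.48 FPKM in single-positive and 10.3 FPKM in double-negative cells. Jak2 was at 1.65, 5.03 and 7.41 FPKM in the same fractions. Double-positive over double-negative, where 12.2% of all rows were lower, Pik3r1, Jak2 and also Jak1 were lower. Jak1 was at 10.6 FPKM in double-positive against 22.8 FPKM in double-negative cells. These differences of Pik3r1, Jak2 and Jak1 ran beside the marker sums of fibroblast and T-lineage genes, whose part was not tested. The catalytic subunit gene Pik3cb ran the other way, at 20.9 FPKM in double-positive against 8.44 FPKM in double-negative cells. In that comparison 3.81% of all rows were higher. Counts of 1 higher and 3 lower among 19 are near the shares of all rows there. Stat3, the transducer of LIF, was at 26.0 to 33.0 FPKM in all 5 fractions.

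Of 12 genes of the WNT arm, Lef1, a partner of beta-catenin, was lower in the Tbx3 step and in the Zscan4 sort. The shares of all rows lower there were 6.94% and 0.875%, and 1 call among 12 is near the first. Lef1 was at 8.53 FPKM in double-positive, 19.0 FPKM in single-positive and 31.2 FPKM in double-negative cells. Its level was 7.07 and 16.0 FPKM in Zscan4-positive and Zscan4-negative cells. Lef1 thus ran against Tbx3 in both lines. In the Esrrb/Tbx3 line Lef1 also ran beside the T-lineage marker sums given above, whose part was not tested. Tcf7, a related factor gene also used by T cells, was at 146 FPKM in double-positive against 314 FPKM in double-negative cells. In that comparison 12.2% of all rows were lower. Axin2, a WNT feedback gene, was at 9.96 FPKM in Zscan4-positive against 3.89 FPKM in Zscan4-negative cells. It was the 1 member higher there, where 3.46% of all rows were. The list medians were 0.03 in the Tbx3 step and -0.09 in the Zscan4 sort.

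The de novo methyltransferase genes were lower with the Esrrb step and the Zscan4 sort but not called in the Tbx3 step, with Dnmt3b short of 2-fold in the Zscan4 sort. Dnmt3b was at 71.9 FPKM in double-positive, 66.9 FPKM in single-positive and 158 FPKM in double-negative cells, and at 60.0 and 103 FPKM in Zscan4-positive and Zscan4-negative cells. It was called lower in the Esrrb step, where 1.43% of rows were, and short of 2-fold in the Tbx3 step, with a log2 difference of 0.10, as in the Zscan4 sort, with -0.77. Dnmt3a was at 15.9 FPKM in double-positive, 19.8 FPKM in single-positive and 42.1 FPKM in double-negative cells, and at 16.0 and 36.4 FPKM in Zscan4-positive and Zscan4-negative cells. It was called lower in the Esrrb step and in the Zscan4 sort. Of the 16 compared rows of this list, which found 16 of its 17 genes, none was called in the Tbx3 step. The share of all rows past 2-fold there was 7.28%, and a count of 0 among 16 is near it. The Zscan4 rows were at 1.19 FPKM or less in that step, where calls depend on the pseudocount. Zscan4c was at 0.671 against 0.0140 FPKM. With a pseudocount of 0.1 FPKM, the genes called higher there over all lists went from 1 to 8. Tet2, a methylcytosine dioxygenase gene, was higher in double-positive cells, at 22.4 FPKM, against 10.7 FPKM in double-negative cells. In that comparison 3.81% of all rows were higher. The 8 higher in the Zscan4 sort, where 3.46% of all rows were, were the 6 Zscan4 rows, Tcstv3 and Zfp352. These genes mark the state that was sorted.

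Genes that T-box factors are reported to repress, 6 in all, held none past 2-fold in the Tbx3 step, where 7.28% of all rows were, or in the Zscan4 sort, where 4.33% were, with medians of 0.22 and 0.17. A count of 0 among 6 is near those shares, and the same holds for the counts of 0 and 1 in the corepressor and core factor lists. Cdkn2a, the cell cycle inhibitor gene best known as such a target, was at 3.11 FPKM in double-positive, 1.94 FPKM in single-positive and 4.19 FPKM in double-negative cells, and at 6.67 and 4.69 FPKM in Zscan4-positive and Zscan4-negative cells. Cdkn1c, a further inhibitor gene and imprinted, was the 1 member lower in the Esrrb step, where 1.43% of all rows were. It was at 19.3 FPKM in single-positive against 72.5 FPKM in double-negative cells. Among 12 corepressor genes, Hdac5 was the 1 called in the Zscan4 sort, at 26.3 FPKM in Zscan4-positive against 69.1 FPKM in Zscan4-negative cells, and none was called in the Tbx3 step, with a median of 0.08. Of 14 endoderm and mesendoderm genes, 10 stayed under 1 FPKM in every fraction, Gata6 and Sox17 among them, and 4 were compared. Gsc, a homeobox gene of the organizer, was called higher in the Zscan4 sort, where 3.46% of all rows were. Its level was 2.57 FPKM in Zscan4-positive against 0.375 FPKM in Zscan4-negative cells. Dab2 and Pdgfra, an endocytic adaptor and a growth factor receptor gene, were lower in the Tbx3 step, where 6.94% of all rows were. They were at 0.810 and 0.216 FPKM in double-positive against 3.10 and 2.47 FPKM in single-positive cells, beside the fibroblast marker sums given above. Dab2, at 7.51 FPKM in double-negative cells, was also called lower in the Esrrb step, where 1.43% of all rows were. The 8 core factor genes, such as Pou5f1 and Sox2, held none past 2-fold in the Tbx3 step or in the Zscan4 sort. Sox2 alone of them was called in double-positive over double-negative, where 3.81% of all rows were higher. It was at 437 FPKM in double-positive against 209 FPKM in double-negative cells.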

How the data were processed

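The submitters' processing notes name mm10 as the build and, with no roles, Cuffdiff 2.2.1, Cufflinks, TopHat2 2.0.14 and bcl2fastq 1.8.4. The gene annotation and the way libraries were merged are not stated there. The authors deposited FPKM values, with a single column for each fraction of 2 libraries, per the file headers, so depth, replicate spread and any test are lacking. No deposited value column was left out.

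Computed here were differences of log2(FPKM + 1), ranks among the 13595 rows with at least 1 FPKM in a fraction, list counts and medians, and profile distances. Coding and long noncoding rows were taken from a RefSeq gene table (GRCm38.p6), in which 13031 of the 13595 matched. The rule for named genes was T-box rows, rows within 1 Mb, the 8 nearest profiles, and from each list at most 4 members past 2-fold. Named outside it, with values in view, were the genes that outrank Tbx3 in the Tbx3 step or are shared between it and the Zscan4 sort, P2rx7, Hdac11, Stat3, Cdkn2a, Gata6, Sox17, naive genes at the ends of a range, individual markers, and further members of the methylation and 2-cell list. The gene and all lists were chosen with earlier results of these data known. A planned limma fit over libraries could not be run. The steps were tested on simulated data. Python 3.11.15, pandas 2.3.3, numpy 2.4.6 and matplotlib 3.10.9 were used.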

Additional observations from a re-analysis of the deposited data

How the results depend on the processing

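No paired analysis was possible because each fraction has 1 value that merges both libraries, and leaving out a replicate was not possible for the same reason. The Tbx3 difference kept its direction and its side of 2-fold under all 7 alternatives in the Tbx3 step (2.24 to 2.78), the Zscan4 sort (1.50 to 1.63), double-positive over double-negative and Zscan4-negative over double-positive. That difference cannot change with filters or summed rows, as Tbx3 is a single row. Only pseudocount and scaling could move it. With a pseudocount of 0.1 FPKM it was 1.32 in the Esrrb step, past 2-fold, and 4.10 in double-positive over double-negative.

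Counts of rows moved by over 1.5 times as follows. With a pseudocount of 0.1 FPKM, 428 rows were higher and 469 lower in the Esrrb step, 153 and 1460 in the Tbx3 step, 835 and 280 in the Zscan4 sort, and 339 and 341 in Zscan4-negative over double-positive. Listed genes were lower in 12 cases in the Esrrb step, higher in 8 in the Tbx3 step and lower in 8 in Zscan4-negative over double-positive. With a pseudocount of 0.5 FPKM, 75 rows and 4 listed genes were higher in the Tbx3 step, and 172 rows were higher, 173 rows lower and 2 listed genes lower in Zscan4-negative over double-positive. With at least 5 FPKM required, fewer rows entered, and 612 were lower in the Tbx3 step, 972 lower in double-positive over double-negative and 303 higher in the Zscan4 sort. Without the 484 rows of the shared profile, a choice made after seeing the data, 524 were lower in the Tbx3 step.

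Of the 8 rows nearest to Tbx3, 0 stayed with profiles divided by their SD, and 0 without both Tbx3-negative fractions, also chosen after seeing the data. Other settings kept 6 to 8. Equal FPKM totals moved the median of all rows by -0.11 in double-positive over double-negative. In all, 171 of the values under alternatives kept their call or stayed within 1.5 times, some of them by construction. The cause of these changes was not tested beyond what each setting's construction gives.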
